A study of Mus musculus with 10 samples.

Results

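The genes described here are a small immune set made of MHC class I genes, complement genes and interferon-induced genes, chosen by name: *H2-K1*, *H2-D1*, *H2-T23*, *B2m*, *C4b*, *Serping1*, *Ifi27* and *Bst2*. The deposited expression table held 7 of these 8 members among its 12575 genes, and all 7 passed the filter on low values (above 1 CPM in at least 4 libraries), which left 12573 genes. *Bst2* was not analysed here. Bulk RNA sequencing was performed on cortical tissue from 5 BMAL1 aKO mice (labelled Cre_pos) and 5 Cre- control mice (labelled Cre_neg), all C57BL/6 and 4 months of age by the labels, although the study's text gives another age for these mice. According to the study's methods both groups were littermates of mixed sex that carried Bmal1 fl/fl and received tamoxifen, and only the BMAL1 aKO mice carried Aldh1l1-CreERT2, which restricts the deletion to Aldh1l1-expressing astrocytes, so *Bmal1* remains intact in the other cells of the tissue. The comparison asks how cortical gene expression differs after astrocytes lose *Bmal1*, here for these immune genes.

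MHC class I molecules display peptides on the cell surface. Each consists of a heavy chain, such as the products of *H2-K1* and *H2-D1*, bound to the light chain beta-2 microglobulin, the product of *B2m*. Complement is a cascade of proteins that tag cells and debris for removal, and interferons induce a broad antiviral programme that includes the class I genes. In the mouse brain, class I and complement proteins are known for their part in the pruning of synapses, and *H2-D1*, *H2-T23* and *Serping1* are among the genes that mouse astrocytes induce after bacterial lipopolysaccharide.

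The upstream sequences of the class I members are shown because interferon and NF-kappa B are known to act on this family through upstream elements. RefSeq start sites on GRCm38.p6 were matched for 4 of the 7 measured members, and the 200 bases before each start are printed 5′ to 3′ on the gene's own strand. They lie at chr17:34000348-34000547 (minus strand) for *H2-K1*, chr17:35262894-35263093 (plus strand) for *H2-D1*, chr17:36032702-36032901 (minus strand) for *H2-T23* and chr2:122147487-122147686 (plus strand) for *B2m*. Capitals mark the palindromic kappa B element TGGGGATTCCCCA, read as the longest palindrome about a centre base that *H2-K1* and *H2-D1* share, and the interferon response core AANNGAAA. Both were searched on both strands, on which they read TGGGGAATCCCCA and TTTCNNTT. Neither motif overlapped the other. For *H2-D1* and *H2-T23* the GENCODE M21 gene spans given below begin before these RefSeq starts. The printed *H2-D1* stretch lies wholly within its gene span, and the *H2-T23* stretch in part.
H2-K1: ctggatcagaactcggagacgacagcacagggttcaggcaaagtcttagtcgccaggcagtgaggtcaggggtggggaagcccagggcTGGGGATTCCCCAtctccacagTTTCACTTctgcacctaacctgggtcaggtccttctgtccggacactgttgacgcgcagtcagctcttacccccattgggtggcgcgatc
H2-D1: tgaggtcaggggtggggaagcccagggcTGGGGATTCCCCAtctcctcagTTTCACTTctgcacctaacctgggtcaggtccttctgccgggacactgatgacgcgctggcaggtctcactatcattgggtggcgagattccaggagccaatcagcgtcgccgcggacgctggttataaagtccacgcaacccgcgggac
H2-T23: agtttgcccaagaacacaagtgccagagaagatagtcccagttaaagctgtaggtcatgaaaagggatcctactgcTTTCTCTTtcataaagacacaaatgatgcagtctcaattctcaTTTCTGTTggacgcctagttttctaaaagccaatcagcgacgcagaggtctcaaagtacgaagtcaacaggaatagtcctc
B2m: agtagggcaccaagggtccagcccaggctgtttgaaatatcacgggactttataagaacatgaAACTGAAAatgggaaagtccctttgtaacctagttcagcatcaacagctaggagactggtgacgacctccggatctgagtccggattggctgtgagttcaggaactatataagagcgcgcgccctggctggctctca

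The classical heavy chain genes *H2-K1* and *H2-D1* shared the same arrangement, a kappa B palindrome followed by TTTCACTT. In *H2-K1* they lay at -112 to -100 and at -90 to -83, and in *H2-D1* at -172 to -160 and at -150 to -143, counted from the start site. *H2-T23* held 2 interferon cores and no kappa B palindrome in this window, and *B2m* held 1 interferon core, AACTGAAA, at -137 to -130. Only the exact palindrome was searched, so other forms of the kappa B element may be present in any of these windows. The kappa B palindrome, which was taken from the *H2-K1* and *H2-D1* promoters, matched in 4 of 32851 RefSeq windows of 250 bases (0.0122%). These include its source promoters, *H2-K1* at start sites 1 and 2 and *H2-D1* at start site 1. The interferon core matched in 21.3% of the windows, but it is shorter and leaves bases free, so the shares are not alike. The E-box CACGTG, the element to which BMAL1 binds together with CLOCK, was present in 6.02% of all windows and in none of the 4 printed here. These matches describe letters only.

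Total reads, recovered from the step size of the values, were 23127338 to 47964460 in the BMAL1 aKO libraries and 21844770 to 48295715 in the Cre- libraries, so that the least abundant member, *Serping1*, rested on 94 to 356 reads per library. *Arntl*, the gene for BMAL1, was measured at 34.5 ± 2.93 CPM in BMAL1 aKO cortex and 34.2 ± 2.25 CPM in Cre- cortex (SD, n = 5 each), with a log2 fold change of 0.01 (limma adjusted p = 0.932), so whole tissue mRNA does not check the genotype labels. The astrocyte gene *Aldh1l1* was present in every library, at 38.05 ± 4.36 CPM in BMAL1 aKO and 44.0 ± 11.6 CPM in Cre- cortex. Libraries contributed unequally to the fit, because their estimated quality weights were 0.714 to 1.79 in BMAL1 aKO and 0.181 to 7.19 in Cre-, with the highest weight on Cre- replicate 1. Reads from mitochondrial-encoded genes made up 14.5% to 18.0% of the BMAL1 aKO libraries and 6.19% to 19.9% of the Cre- libraries.

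None of the 7 members passed the adjusted p threshold of 0.1, in a comparison that called 42 of 12573 genes (0.334%), 36 of them higher in BMAL1 aKO (0.286%) and 6 lower (0.0477%). In the limma fit with quality weights, 6 of 7 had a log2 fold change above zero, with a median of 0.30, against -0.04 over all genes tested. *H2-K1*, *H2-D1*, *B2m*, *C4b* and *Ifi27* had an unadjusted p below 0.05, all 5 higher, a level that 6.82% of all genes reached in that direction. The members were chosen with earlier results of these data known, so setting them against this share is no test. Without weights none passed the threshold either, in a fit that called 4 of all genes (0.0318%), the members' median was 0.16 and 1 member, *Ifi27*, had an unadjusted p below 0.05, a level that 4.79% of all genes reached in either direction. For every member the values of the groups overlapped, and 1.0% of all genes tested showed no overlap. The members come from whole tissue, in which fewer cells of a type and less RNA per cell cannot be told apart.

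**Figure D1:**
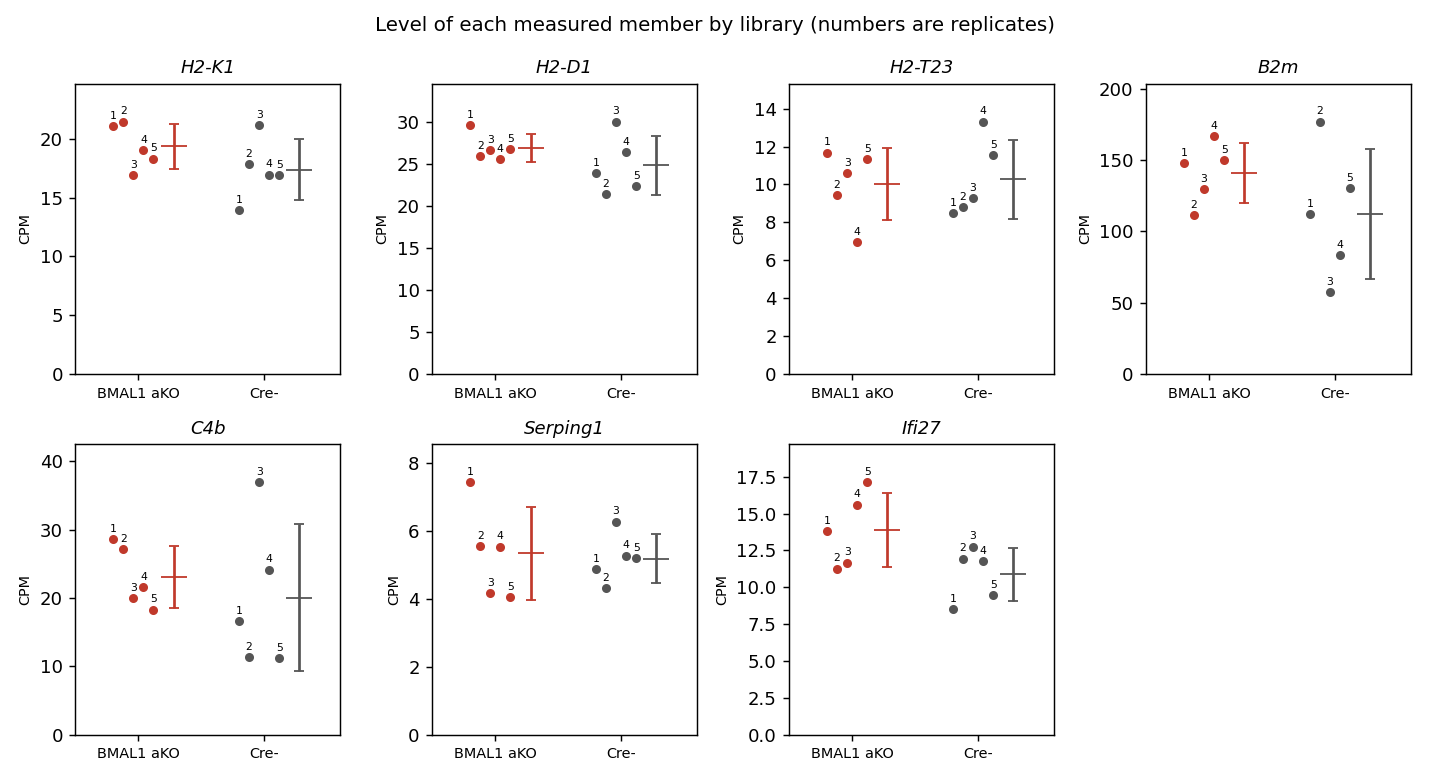
Level of the 7 measured members in CPM (y axis, from 0) in 5 BMAL1 aKO and 5 Cre- cortex libraries (x axis); numbered points are replicates, and bars give the mean and SD. All 7 members overlap between groups, and 3 BMAL1 aKO libraries lie above the highest Cre- library for *Ifi27*.

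*Ifi27* encodes a small mitochondrial membrane protein that is induced by type I interferon. The gene lies at chr12:103434211-103440239 (plus strand, GRCm38, as are the coordinates that follow). Its level, given here and for the genes that follow in the order of replicates 1 to 5, was 13.8, 11.3, 11.7, 15.6 and 17.1 CPM in the BMAL1 aKO libraries, against 8.51, 11.95, 12.8, 11.8 and 9.45 CPM in the Cre- libraries. BMAL1 aKO replicates 1, 4 and 5 were above every Cre- library, and Cre- replicates 1 and 5 were below every BMAL1 aKO library. The log2 fold change was 0.59 (SE 0.12, 95% interval 0.32 to 0.85, limma adjusted p = 0.105), the largest among the members, and the plain means differed 1.28-fold. Without weights it was 0.34 (95% interval 0.01 to 0.67, limma adjusted p = 0.803), and the two-sided exact permutation test gave p = 0.0794. The adjusted p for *Ifi27* was 0.0333 without BMAL1 aKO replicate 3 and 0.925 without Cre- replicate 1, at log2 fold changes of 0.70 and 0.39.

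*H2-K1* encodes a classical class I heavy chain and lies in the MHC on chromosome 17 (chr17:33996017-34000347, minus strand). It was measured at 21.1, 21.5, 16.9, 19.0 and 18.3 CPM in the BMAL1 aKO libraries, against 13.96, 17.9, 21.2, 17.0 and 16.9 CPM in the Cre- libraries. The spans almost coincided apart from Cre- replicate 1, the lowest of the 10 libraries and the one with the highest weight. The log2 fold change was 0.33 (SE 0.10, 95% interval 0.12 to 0.54, limma adjusted p = 0.177) with weights and 0.16 (95% interval -0.10 to 0.42, limma adjusted p = 0.803) without them, and the exact permutation test gave p = 0.190. Without Cre- replicate 1 the weighted value was 0.12 (adjusted p = 0.925), and without BMAL1 aKO replicate 3 it was 0.38 (adjusted p = 0.0792), the only setting in which *H2-K1* passed.

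*H2-D1* encodes the other classical heavy chain measured (chr17:35262730-35267499, plus strand). Its values were 29.7, 26.0, 26.7, 25.6 and 26.8 CPM in the BMAL1 aKO libraries, against 23.9, 21.5, 30.1, 26.4 and 22.4 CPM in the Cre- libraries. Cre- replicates 1, 2 and 5 were below every BMAL1 aKO library, whereas Cre- replicate 3 was the highest of all 10. The log2 fold change was 0.16 (SE 0.07, 95% interval 0.01 to 0.31, limma adjusted p = 0.262), and the exact permutation test gave p = 0.246. *H2-T23* encodes the non-classical heavy chain Qa-1, a ligand of receptors on natural killer cells (chr17:36029773-36032855, minus strand). It was at 11.7, 9.45, 10.6, 6.96 and 11.4 CPM in BMAL1 aKO cortex, against 8.49, 8.79, 9.27, 13.3 and 11.6 CPM in Cre- cortex. Its lowest value was in a BMAL1 aKO library and its highest in a Cre- library, and its log2 fold change was 0.09 with weights (95% interval -0.22 to 0.40) and -0.04 without them.

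*B2m*, the light chain gene shared by all of these heavy chains (chr2:122147686-122153083, plus strand), was the most abundant member. It was measured at 147.7, 111.4, 129.4, 166.6 and 150.0 CPM in the BMAL1 aKO libraries, against 111.9, 177.0, 57.6, 83.3 and 130.5 CPM in the Cre- libraries. Cre- replicates 3 and 4 were below every other library, while Cre- replicate 2 was above every other. Its log2 fold change was 0.30 (SE 0.13, 95% interval 0.02 to 0.59, limma adjusted p = 0.273), and the exact permutation test gave p = 0.230. Per kilobase of exon, *B2m* averaged 164.0 CPM in BMAL1 aKO and 130.3 CPM in Cre- cortex, *H2-D1* 10.4 and 9.64, *H2-K1* 6.59 and 5.91, and *H2-T23* 3.46 and 3.56. On this length-scaled level the light chain thus exceeded the heavy chains in both groups.

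*C4b* encodes mouse complement component C4, which is cleaved early in the classical and lectin pathways, and lies within the MHC region (chr17:34728380-34743882, minus strand). It was measured at 28.6, 27.1, 19.9, 21.6 and 18.3 CPM in the BMAL1 aKO libraries, against 16.6, 11.4, 36.9, 24.2 and 11.2 CPM in the Cre- libraries. All 5 BMAL1 aKO libraries were above Cre- replicates 1, 2 and 5, and all were below Cre- replicate 3. For *C4b* the log2 fold change was 0.44 (SE 0.17, 95% interval 0.08 to 0.80, limma adjusted p = 0.227), with p = 0.357 by the exact permutation test. Of the 100-base windows in the *C4b* transcripts, 15.2% also occur in transcripts of other genes, most of them of *C4a*. Reads from those windows may not be assignable to *C4b*, and *C4a* was not analysed here. The share of such windows was 3.59% for *H2-D1*, 3.15% for *H2-T23*, 0.957% for *H2-K1* and 0 for *B2m*, *Serping1* and *Ifi27*.

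*Serping1* encodes the C1 inhibitor, which blocks the proteases that start the classical pathway (chr2:84765387-84775444, minus strand). Its values were 7.42, 5.54, 4.16, 5.53 and 4.05 CPM in BMAL1 aKO cortex, against 4.87, 4.30, 6.27, 5.27 and 5.20 CPM in Cre- cortex. BMAL1 aKO replicate 1 was the highest library and BMAL1 aKO replicates 3 and 5 were the lowest, so the Cre- values lay inside the BMAL1 aKO range. On the log2 scale the fold change was -0.00093 (95% interval -0.28 to 0.28, limma adjusted p = 0.997). Per kilobase of exon, *Ifi27* averaged 9.48 CPM in BMAL1 aKO and 7.42 CPM in Cre- cortex, *C4b* 4.06 and 3.52, and *Serping1* 2.30 and 2.23.

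**Figure D2:**
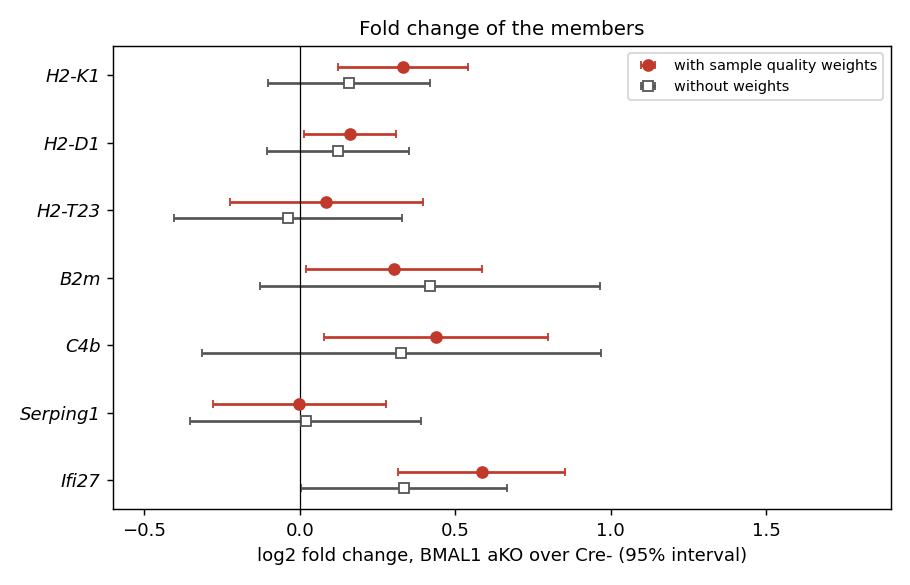
Log2 fold change of each member, BMAL1 aKO over Cre- (x axis), with 95% intervals from limma; filled circles are the fit with quality weights and open squares the fit without. With weights the intervals of 5 members lie above zero, and without weights only that of *Ifi27* does.

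Leaving out each library in turn kept the weighted fold change positive in all 10 fits for *H2-K1*, *H2-D1*, *B2m*, *C4b* and *Ifi27*. The ranges were 0.12 to 0.38 for *H2-K1*, 0.11 to 0.20 for *H2-D1*, 0.21 to 0.43 for *B2m*, 0.23 to 0.61 for *C4b* and 0.39 to 0.70 for *Ifi27*. For *H2-T23* the range was -0.20 to 0.21 and for *Serping1* -0.06 to 0.07, so both changed sign. The removal of Cre- replicate 1 gave the lowest value for *H2-K1*, *H2-T23* and *Ifi27* and the highest for *C4b*, and 2 of the members then had an unadjusted p below 0.05, in a fit whose weights did not converge and in which 4.70% of all genes had one. The number of members past the threshold was 2 without BMAL1 aKO replicate 3 (*H2-K1* and *Ifi27*), 1 without BMAL1 aKO replicate 2 and 1 without Cre- replicate 2 (*Ifi27* each time), and 0 without each of the others. Those fits called 6.71%, 0.414% and 0.429% of all genes. The study's own analysis used 1 BMAL1 aKO mouse fewer than the labels list, without naming it.

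**Figure D3:**
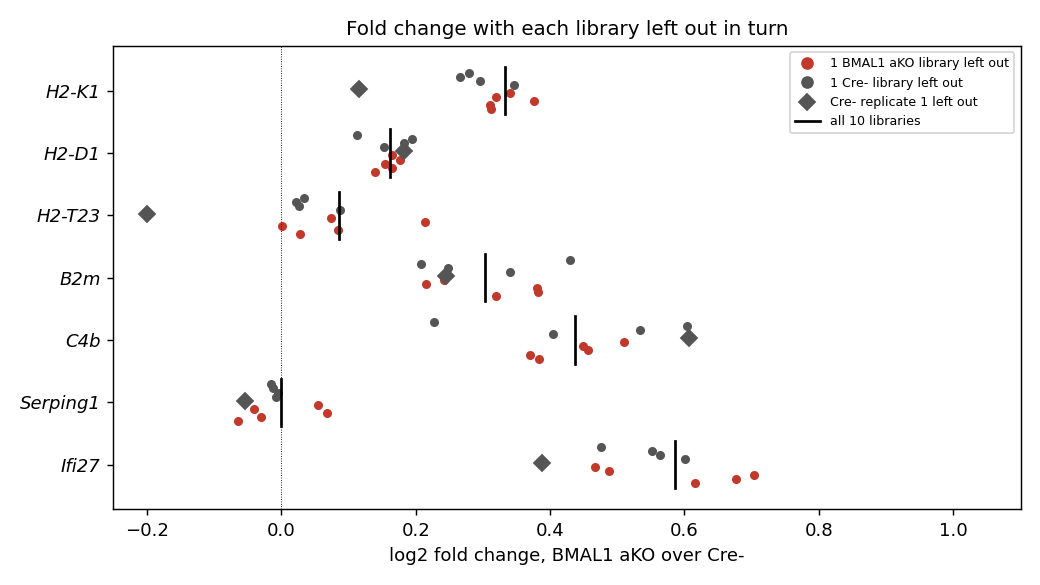
Log2 fold change of each member, BMAL1 aKO over Cre- (x axis), with 1 library left out at a time; red points leave out a BMAL1 aKO library, grey points a Cre- library, the diamond Cre- replicate 1, and the black line is the fit on all 10 libraries. *H2-K1* moves to 0.12 and *H2-T23* to -0.20 without Cre- replicate 1.

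The members did not all vary together across libraries. With each group's mean subtracted on the log2 scale, *H2-D1* and *C4b* rose and dropped in the same libraries (Pearson r = 0.92 over 10 libraries), whereas *B2m* ran opposite to both, at r = -0.89 with *C4b* and r = -0.83 with *H2-D1*. The heavy chain *H2-K1* had r = 0.48 with *H2-D1* and r = -0.41 with its partner *B2m*. These values are descriptions, since the libraries share tissue makeup, depth and RNA handling.

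The same contrast appeared against the mitochondrial-encoded share of each library. *B2m* followed that share almost completely, with r = 0.98 (Spearman rho = 0.99) after subtraction of the group means and r = 0.97 without Cre- replicates 3 and 4, the libraries farthest from the median share. Of the 12573 genes tested, 5 (0.0398%) had an r with this share at or above that of *B2m*. *C4b* and *H2-D1* ran the other way, at r = -0.89 and -0.86 (-0.73 and -0.68 without Cre- replicates 3 and 4), which was common in the table, since 19.0% and 23.2% of all genes were as negative or more so. *Ifi27* had r = -0.01, *H2-K1* -0.32, *H2-T23* -0.25 and *Serping1* -0.41 with the share, and 0.51, 0.14, -0.27 and -0.23 in the same order without Cre- replicates 3 and 4. With the mitochondrial-encoded genes removed from the totals, the log2 fold changes were 0.33 for *B2m*, 0.48 for *C4b*, 0.20 for *H2-D1*, 0.37 for *H2-K1* and 0.62 for *Ifi27*. This removal only rescales each library and does not adjust for the share. The part of the mitochondrial share in the group differences was not tested.

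**Figure D4:**
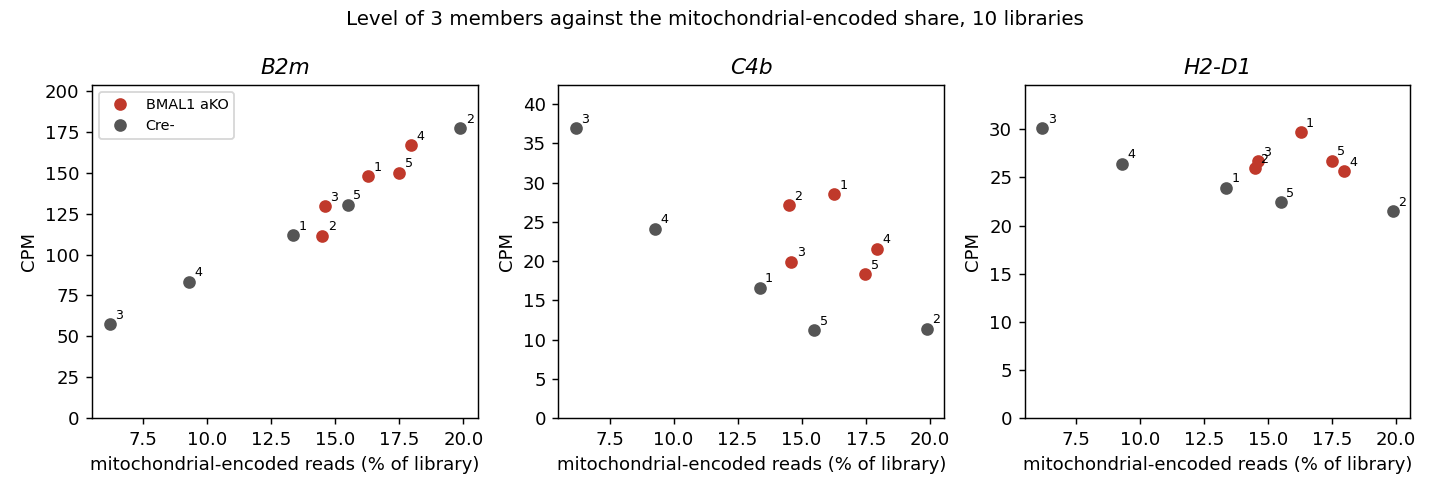
Level of *B2m*, *C4b* and *H2-D1* in CPM (y axis) against the percent of reads from mitochondrial-encoded genes (x axis) in 5 BMAL1 aKO (red) and 5 Cre- (grey) libraries, numbered by replicate. *B2m* increases with the share, and *C4b* and *H2-D1* decrease, with Cre- replicate 3 at one end (6.19%) and Cre- replicate 2 at the other (19.9%).

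The 3 genes most like each member across libraries were named by the same r over 10 libraries. For *B2m* they were *Rpf2*, *Gm11966* and *Dek* (r = 0.99 each), for *C4b* *Clptm1l*, *Slc25a10* and *Eif6* (0.99 each), and for *H2-D1* *Vps72*, *Col7a1* and *Naglu* (0.98, 0.98 and 0.97). For *H2-K1* they were *Mdk*, *Slc22a8* and *Syne4* (0.95, 0.89 and 0.89), for *Serping1* *Surf6*, *Ubap2* and *Gpr4* (0.95, 0.94 and 0.93), and for *Ifi27* *Tmem200c*, *Lrrc8a* and *Dap3* (0.91, 0.90 and 0.89). For *H2-T23* the most alike gene was *A330102I10Rik* (0.96), ahead of *Grid2ip* and *Wnt10a*. No member was among the 3 genes most like another.

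Pathway lists place the members among their partners, and no gene of the 4 lists passed the threshold. The class I antigen presentation list had 15 of 25 genes in the table, with a median log2 fold change of -0.03, close to that of all genes (-0.04), and 7 of 15 above zero. *Tapbpl*, which edits peptides bound to class I, had 0.23 (limma adjusted p = 0.260), the immunoproteasome subunit gene *Psmb10* 0.13 (0.420), the heavy chain gene *H2-Q4* 0.30 (0.405), and *Pdia3*, a chaperone of the peptide-loading complex, -0.13 (0.281). *Tap1*, *Psmb8*, *Psmb9* and *Nlrc5* were not analysed here.

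For complement and its regulators, 21 of 35 genes were in the table, with a median of 0.06 and 12 of 21 above zero. *Itgb2*, the beta chain of complement receptor 3, had a log2 fold change of 0.40 (limma adjusted p = 0.182) and *Clu*, a secreted inhibitor of the terminal pathway, 0.17 (0.273). The membrane proteins with complement control domains *Csmd1* and *Csmd3* had -0.19 (0.237) and -0.25 (0.272). Of the 21, 2 were higher and 3 lower at an unadjusted p below 0.05, counts near those of all genes (6.82% higher and 10.0% lower), and none reached it without weights.

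Of the interferon-stimulated genes, 34 of 58 were in the table and 24 of 34 had a fold change above zero, with a median of 0.14 with weights and 0.07 without. At an unadjusted p below 0.05, 8 of the 34 were higher and 1 lower, against 6.82% and 10.0% of all genes, and 38.4% of all genes had a fold change above zero. Without weights 3 of the 34 reached an unadjusted p below 0.05, against 4.79% of all genes. *Ifitm3*, a membrane protein that blocks virus entry, was at 7.15, 6.14, 6.67, 7.61 and 7.67 CPM in the BMAL1 aKO libraries, against 5.03, 5.95, 4.26, 4.37 and 5.25 CPM in the Cre- libraries. All 5 BMAL1 aKO libraries were above all 5 Cre- libraries, and 1.0% of all genes tested showed no overlap, in either direction. *Ifitm3* was named for the smallest limma p of its list, so this separation was partly selected. Its log2 fold change was 0.45 (SE 0.09, limma adjusted p = 0.103 with weights and 0.803 without), and the two-sided exact permutation test gave p = 0.00794, the smallest that 5 against 5 allows. The adjusted p for *Ifitm3* was 0.0533 without BMAL1 aKO replicate 3 and 0.886 without Cre- replicate 1, the lowest and highest over all alternatives. *Parp14* had 0.47 (0.182), *Lgals3bp* 0.35 (0.188) and *Eif2ak2*, the kinase that senses double-stranded RNA, 0.28 (0.204).

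Of the receptor and signalling genes of the interferon pathway, 19 of 24 were in the table, with a median of -0.07 and 7 of 19 above zero. *Irf1*, the factor known to act on class I promoters through the interferon element, was at 2.59, 4.58, 3.10, 4.02 and 3.69 CPM in BMAL1 aKO cortex, against 4.33, 5.04, 5.79, 4.86 and 5.20 CPM in Cre- cortex. Only BMAL1 aKO replicate 2 reached into the Cre- range. *Irf1* was named for a limma p among the 4 smallest of its list, so this separation and its permutation p were partly selected. The log2 fold change of *Irf1* was -0.31 (limma adjusted p = 0.245, exact permutation p = 0.0159). The kinase *Jak1* had -0.18 (0.192), whereas *Samhd1*, an enzyme that depletes nucleotides needed by viruses, had 0.20 (0.273).

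**Figure D5:**
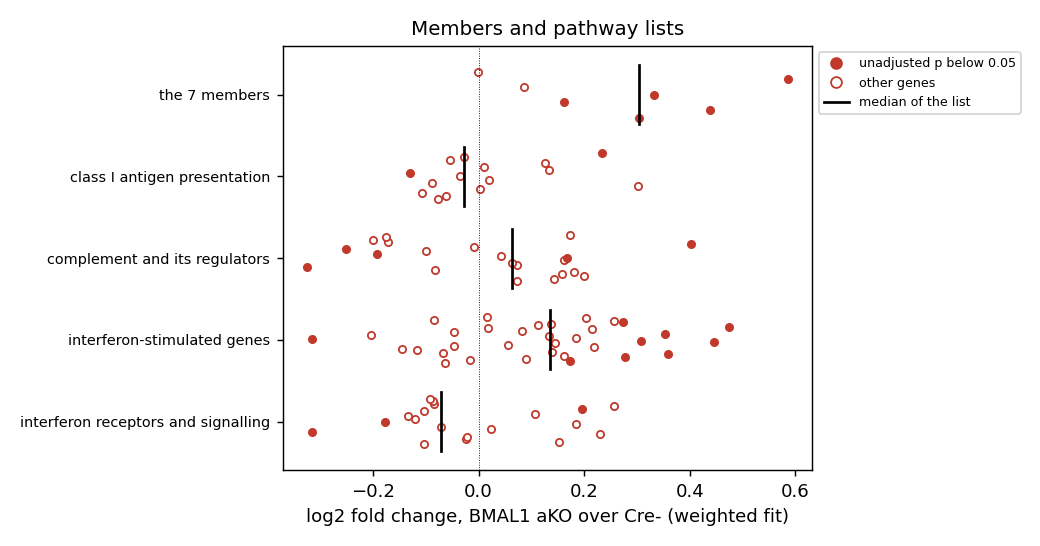
Log2 fold change, BMAL1 aKO over Cre- (x axis), of each measured gene among the 7 members and the 4 pathway lists (y axis); filled points have an unadjusted p below 0.05 and black lines are list medians. The medians are 0.30 for the members, -0.03 for class I antigen presentation, 0.06 for complement, 0.14 for interferon-stimulated genes and -0.07 for receptors and signalling.

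Several members are also expressed by microglia, endothelium and other cells of the cortex, so marker sums were set beside them. The summed level of 16 microglia markers was 377 to 488 CPM (median 426) in BMAL1 aKO and 380 to 569 CPM (median 390) in Cre- cortex, and none of the 16 passed the threshold. With weights 14 of the 16 had a fold change above zero, with a median of 0.14, against 38.4% and -0.04 over all genes. At an unadjusted limma p below 0.05, 4 of the 16 were higher, against 6.82% of all genes. Without weights 9 of the 16 were above zero with a median of 0.04, against 37.0% and -0.05 over all genes. The sum of 12 endothelial markers was 320 to 401 CPM (median 377) in BMAL1 aKO and 320 to 412 CPM (median 374) in Cre- cortex, and 10 of the 12 had a fold change above zero with weights and 7 without. All 10 oligodendrocyte markers were above zero with weights and 6 without. *C4b* and *B2m* moved with the microglia sum in opposite directions (r = 0.74 and -0.80 over 10 libraries, group means subtracted). This was not particular to microglia. The r values were 0.71 and -0.70 with the endothelial sum, and 0.62 and -0.60 with the sum of pericyte and smooth muscle markers. *H2-K1* had r = 0.77 with the pericyte and smooth muscle sum. *Serping1* had r = 0.81 with the sum of perivascular and antigen-presenting myeloid markers. Of 10 markers of T, B and NK cells, 2 (*Ptprc* and *Cd4*) were in the table, and of 12 markers of perivascular and antigen-presenting myeloid cells, 4. The measured markers of meningeal fibroblasts, without the member *Serping1*, summed to 578 to 1018 CPM (median 814) in BMAL1 aKO cortex. In Cre- cortex they summed to 600 to 757 CPM (median 695). Most of this sum came from *Ptgds*, with a median of 559 CPM over all libraries. Astrocyte markers summed to 8229 to 9960 CPM in BMAL1 aKO and 7146 to 8884 CPM in Cre- cortex, and neuron markers to 10667 to 12857 CPM in BMAL1 aKO and 10831 to 12523 CPM in Cre- cortex, so both cell types of the labelled tissue were represented. Of the 12 astrocyte markers, 1 passed the threshold, higher in BMAL1 aKO, and 8 were above zero with weights and 7 without. Of the 10 neuron markers, 3 were above zero with weights and 4 without. The part of these cells in the members' values was not tested.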

How the data were processed

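Cortical RNA from 10 mice was sequenced. The authors prepared cDNA with a kit that does not mark strand, aligned reads with STAR version 2.5.1a to GRCm38/mm10, counted them with featureCounts version 1.4.6-p5 and deposited CPM (the count of a gene scaled to library total) after a filter on low values. The sums of the deposited CPM reached 99.1% to 99.3% of the full scale. Library totals were recovered from the step between low values, and 100% of values were whole reads within 0.01. Groups came from the sample labels, and 0 columns were left unmapped.

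Genes that exceeded 1 CPM in 4 or more libraries were fitted with limma version 3.58.1 (R version 4.3.3) on log2(CPM + 0.5) with array weights and a mean-dependent prior. P-values were adjusted by the Benjamini-Hochberg procedure over all genes tested, with a threshold of 0.1. The pseudocount shrinks the fold changes of weakly expressed genes. Single genes were also tested with a two-sided exact permutation test over 252 splits. Nothing in the labels gives litter or batch, so p-values measure the spread between these mice. The script was tested on simulated data with planted changes and the same noise in every library, so unequal library quality was not covered. Gene positions are from GENCODE M21.

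Genes named are the members, *Arntl*, *Aldh1l1*, the 4 genes with the smallest p in each pathway list with any past the threshold, and the 3 genes most like each member. An item that this rule names is not reported here. The members and lists were chosen with earlier results of these data known. Alternatives covered the pseudocount, the filter, weights, scaling, the replicate number, sex-linked *Xist* as a covariate, the threshold and each library left out.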

Additional observations from a re-analysis of the deposited data

Results flagged for a closer look

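Among 48 groups of 5 libraries checked for a single distant value, 1 was found, and chance gives about 1 in 20. *H2-D1* was at 29.7 CPM in BMAL1 aKO replicate 1, against 25.6 to 26.8 CPM in the other BMAL1 aKO libraries.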

How the results depend on the processing

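Of all genes, 42 passed the threshold, and the count was 4 without weights, 68 with TMM scaling, 65 with quantile scaling, 7 with the replicate number as a block, 22 with *Xist* as a covariate, 68 with mitochondrial-encoded genes left out (chosen after the data were seen) and 20 at a threshold of 0.05. It ranged over 1 (without Cre- replicate 1) to 844 (without BMAL1 aKO replicate 3) when each library was left out. Members past the threshold numbered 0, and 1 (*Ifi27*) with median-of-ratios scaling, TMM scaling and mitochondrial-encoded genes left out (adjusted p = 0.0991, 0.0911 and 0.0829), and 0 to 2 with each library left out. Pathway genes past it numbered 0, and 1 (*Ifitm3*) with a filter above 2 CPM, TMM scaling and mitochondrial-encoded genes left out, and 0 to 3 with each library left out. The correlations of same-numbered deviations over all genes were -0.30, -0.63, -0.08, -0.55 and 0.36, positive for replicate 5 only. Whether the replicate numbers stand for a pairing cannot be told from these values. With the block, 3 members had an unadjusted p below 0.05 (16.2% of all genes), and with voomWithQualityWeights on recovered reads 4 did (10.4% of all genes) and none passed the threshold.

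*H2-T23* changed sign to -0.038 without weights and -0.015 with the replicate block, and ranged over -0.20 to 0.215 with each library left out. *Serping1* was 0.00083 with a pseudocount of 1, 0.018 without weights, 0.037 with median-of-ratios scaling, 0.042 with TMM, 0.053 with voomWithQualityWeights on recovered reads and 0.036 with mitochondrial-encoded genes left out, with -0.064 to 0.068 over the libraries left out. *Arntl* was -0.038 with the replicate block, and -0.060 to 0.079 with each library left out. *Aldh1l1* was 0.0032, 0.0089 and 0.0098 with median-of-ratios, TMM and quantile scaling, 6.0e-05 with *Xist* as a covariate and 0.0073 with mitochondrial-encoded genes left out, and -0.18 to 0.016 with each library left out. The cause of these changes was not tested. The edgeR and DESeq2 alternatives were not run. The weights did not converge without Cre- replicate 1 and without Cre- replicate 5. *Serping1*, at 94 reads in its shallowest library, is the member most limited by depth.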
